A study of Mus musculus with 57 samples.

Results

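HoxC is one of the 4 Hox gene clusters of the mouse and holds 9 homeobox genes, Hoxc4, Hoxc5, Hoxc6, Hoxc8, Hoxc9, Hoxc10, Hoxc11, Hoxc12 and Hoxc13. Its chromatin was described from all listed regions that overlap chr15:102745000-102872000 of mm9, a window of 127 kb with Hoxc13 at the low end and Hoxc4 at the high end. Across 32 lists, 189 of 591931 regions lay in this window, 20 lists had at least 1 region there and 12 had 0. A region here is a stretch that the authors' peak caller listed for 1 library. No annotation of mm9 was used, so regions are placed by position along the cluster and not assigned to single genes.

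Of the 57 samples of the series, 32 have such a list, namely 23 ChIP-seq libraries, 2 inputs without antibody and 7 ATAC-seq libraries, and 25 samples of 4C-seq were left out. Wild-type epiblast stem cells (EpiSCs), cell lines grown from the pre-streak mouse epiblast in Fgf and Activin with the Wnt secretion inhibitor IWP2 (2 µM), were profiled for H3K27ac after 24 h of CHIR99021 (3 µM, 2 libraries) and at 0 h in IWP2 (1 library), and by ATAC-seq after 48 h of CHIR99021 and at 0 h in IWP2 (1 library each). CHIR99021 inhibits GSK3 and so switches on the Wnt pathway inside the cell. The labels of stimulated cells give no IWP2, so where the 0 h cells were in IWP2, its absence and the added agent cannot be told apart. For H3K4me3 and H3K27ac in the Wnt3KO cells described next, no IWP2 dose is labelled at 0 h either. Whether IWP2 differed between times there is not known. EpiSCs lacking Wnt3 (Wnt3KO) were profiled for H3K4me3 and H3K27ac at 0 h, labelled as without Wnt stimulation, and after 6, 12 and 72 h of CHIR99021 (1 library at each time). In Wnt3KO cells, H3K27me3 was profiled at 0 h in IWP2 (2 libraries), at 5 h of Wnt3a protein (125 ng/mL) and at 6, 12 and 72 h of CHIR99021. Ring1b was profiled there at 0 h in IWP2 (2 libraries), at 5 h of Wnt3a and at 72 h of CHIR99021. ATAC-seq was also done on wild-type embryos at E6.0 (2 libraries), E7.2 (2 libraries) and E7.5 (posterior part, 1 library). The labels name neither the Wnt3 allele nor the number of cell lines or embryos behind a library, and each list reads a whole population of cells, in which more cells with a mark and more of it per cell cannot be told apart. Since no label ties the libraries of a pair to different cultures or litters, the spread between them may be technical.

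Hox genes encode transcription factors that give cells their position along the head to tail axis, and they are switched on in the order in which they stand in the cluster, starting at the end that carries the low-numbered genes. In HoxC that end carries Hoxc4, Hoxc5 and Hoxc6, which act in neck and upper trunk, followed by Hoxc8 and Hoxc9 of the trunk and by Hoxc10, Hoxc11 and Hoxc12 of the lower trunk and tail. Hoxc13, at the other end, is also needed for hair and nails. HoxC has none of the lowest-numbered groups of Hox genes, which respond first in the other clusters. Before activation, Hox clusters are covered by Polycomb complexes, of which Ring1b belongs to the first and H3K27me3 is deposited by the second Polycomb repressive complex. H3K4me3 marks promoters, H3K27ac active promoters and enhancers, and ATAC-seq reads open chromatin.

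The gene order was taken from RefSeq (GRCm38.p6, used for names and order only), in which 9 of 9 genes were found. It runs Hoxc13, Hoxc12, Hoxc11, Hoxc10, Hoxc9, Hoxc8, Hoxc6, Hoxc5 and Hoxc4, with 5 further genes in between, among them Hotair, a long non-coding RNA, and the microRNA genes Mir196a-2 and Mir615. A promoter sequence was at hand for 1 of the 9 genes, Hoxc4. It is shown because the Hoxc4 end of the cluster is where the H3K27ac regions shared by both wild-type libraries at 24 h were listed and where ATAC-seq coverage differed most between 48 h and 0 h. The 300 bases (250 before and 50 after the start) come from RefSeq, GRCm38.p6, chr15:103034145-103034444, plus strand, a build whose positions cannot be set beside the mm9 positions used for the regions. Capitals mark the CG dinucleotides.
Hoxc4 promoter: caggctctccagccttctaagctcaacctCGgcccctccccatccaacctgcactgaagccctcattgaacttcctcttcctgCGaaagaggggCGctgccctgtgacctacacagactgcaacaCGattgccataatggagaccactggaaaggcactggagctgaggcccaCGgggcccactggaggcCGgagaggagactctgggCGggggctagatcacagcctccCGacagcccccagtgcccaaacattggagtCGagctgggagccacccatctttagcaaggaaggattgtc
It holds 9 CG dinucleotides, against a median of 7 over 32851 RefSeq promoters of the same length, and its GC content is 60.3%. CTTTG, the core that TCF and LEF factors of the Wnt pathway bind, had 0 matches on either strand, and 53.9% of all these promoters hold it. The longer CTTTGAT, which contains that core, also had 0 matches (held by 3.73% of promoters), as had TTTATTG (4.60%) and TTTATGG (2.75%), which Cdx factors bind. This says only that these letters are not in this window of 300 bases.

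Depth is unknown, since the lists carry no read totals. List lengths were 16287 to 17714 regions for H3K4me3 in Wnt3KO cells, 10161 to 12135 for H3K27ac in Wnt3KO cells, 29056 and 27422 (24 h) and 14453 (0 h) for H3K27ac in wild-type cells, 1012 to 6236 for H3K27me3, 604 to 2244 for Ring1b and 33881 to 72433 for ATAC-seq. The inputs had 253 and 424 regions, with 0 in HoxC. The lists came from 7 processing folders that show in the peak names, and lists of separate folders may differ for that reason, which was not tested. A pair of wild-type H3K4me3 libraries with contradictory labels entered no comparison. Whether the cells carried the markers of EpiSCs was not checked, as lists of regions without an mm9 annotation give no value per gene.

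**Figure D1:**
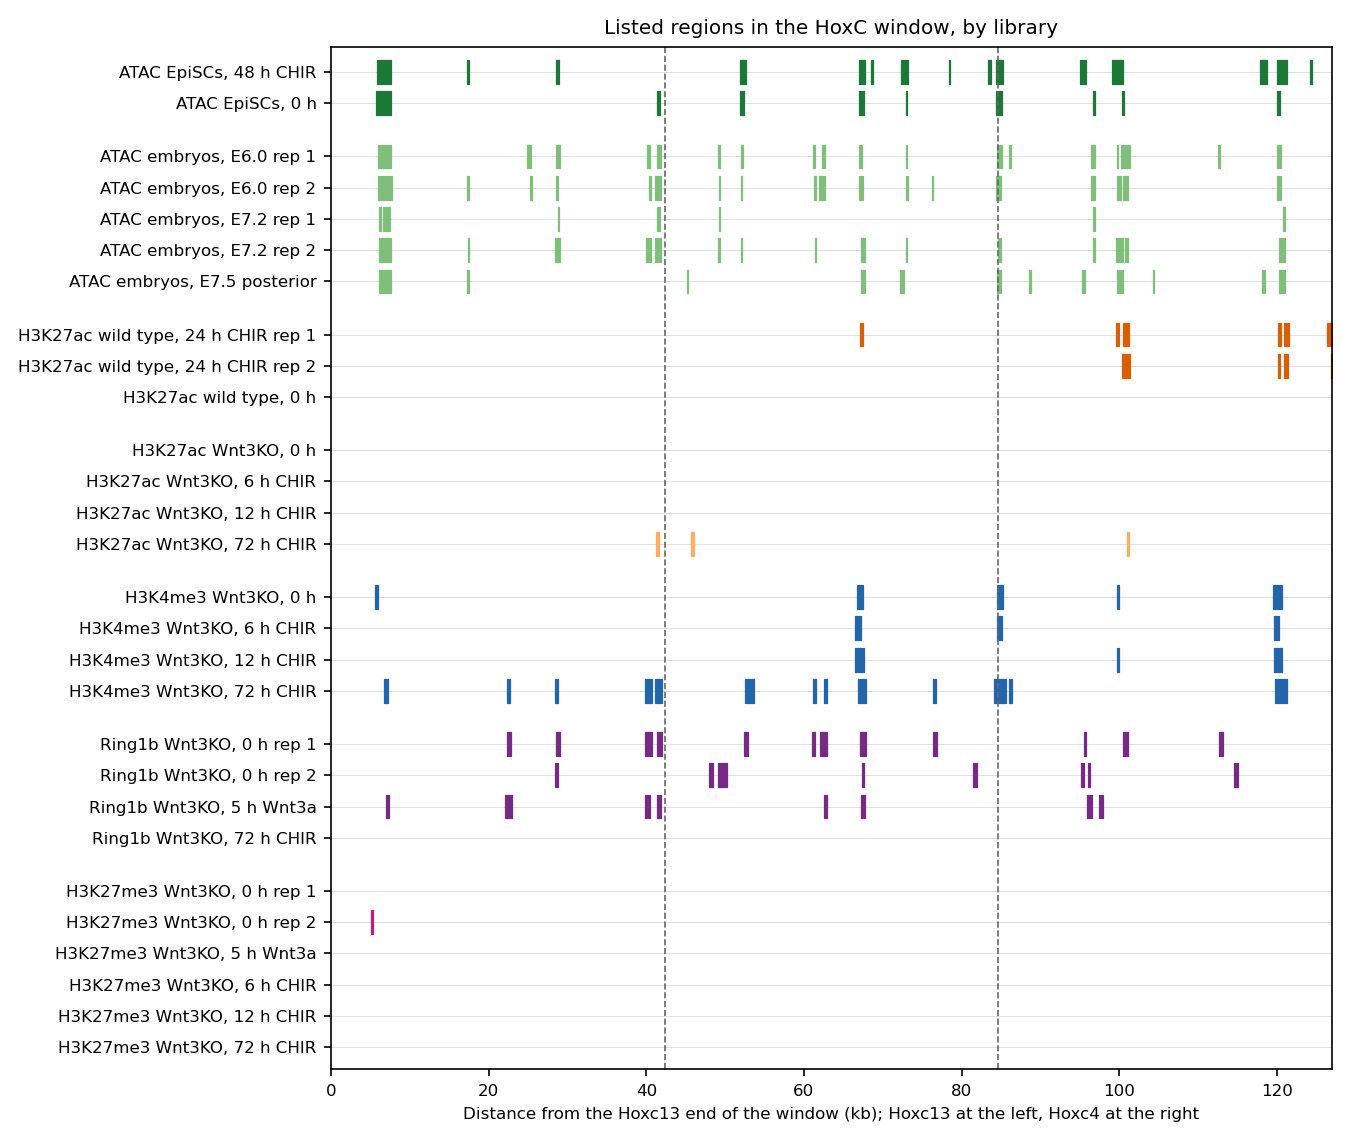
Listed regions of 28 ATAC-seq and ChIP-seq libraries along the HoxC window, with the distance from the Hoxc13 end in kb on the x axis and 1 library per line; each box is 1 region, and the dashed lines divide the window into 3 equal parts. H3K27ac of wild-type cells at 24 h stands almost wholly at the Hoxc4 end, H3K4me3 is spread over the window at 72 h (14 regions, against 5, 4 and 4 at 0, 6 and 12 h), and Ring1b has 0 regions at 72 h.

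The regions of these 28 libraries merged into 37 sites that cover 21.7% of the window, with 8 at the Hoxc13 end, 15 in the middle and 14 at the Hoxc4 end when the window is cut into 3 equal parts. Of these sites 30 were listed by at least 1 ATAC-seq library, 19 by Ring1b, 14 by H3K4me3 and 6 by H3K27ac, and 13 were listed by a single library. Both Ring1b and H3K4me3 were listed at 11 sites, counted over all times. At most of these, H3K4me3 was listed only at 72 h, when Ring1b had 0 regions. A pair of sites was listed in all 7 ATAC-seq libraries, chr15:102750572-102752695 near the Hoxc13 end and chr15:102864561-102866485 near the Hoxc4 end. A site joins overlapping regions of all libraries, so its regions need not share a position. At the second site the region of the first E7.2 library (chr15:102865808-102865976) did not overlap that of unstimulated EpiSCs (chr15:102865032-102865452). The site listed by most libraries, 14 of them, was chr15:102811490-102812883 in the middle, where H3K4me3, H3K27ac, Ring1b and open chromatin were all listed.

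H3K4me3 was followed in Wnt3KO cells to ask when the promoter mark appears along the cluster. It was sparse in HoxC for 12 h and spread at 72 h. There were 5 regions before stimulation (95% exact Poisson interval 1.62 to 11.7), 4 after 6 h, 4 after 12 h and 14 after 72 h (7.65 to 23.5). Their coverage of the window was 2.61% before stimulation, 1.69% after 6 h, 1.87% after 12 h and 7.36% after 72 h. The first 3 time points were alike in number, and the intervals of 72 h and 0 h overlap. With 1 library at each time there is no replicate error and no test, and the intervals cover counting error only.

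None of the 4 regions listed at 6 h was new relative to 0 h, where 2.97% of all H3K4me3 regions were. The same held at 12 h for 0 of 4 regions, against 3.53% over the genome. At 72 h, 11 of 14 regions (78.6%, exact 95% interval 49.2 to 95.3) did not overlap any region of 0 h, against 6.69% of all regions. The other Hox clusters had similar shares, given below. The 0 h and 72 h lists share a processing folder, so this comparison lies within 1 folder, whereas the 6 h and 12 h lists come from another. Between the 12 h and 6 h lists, which share their folder, 1 of 4 regions was new at 12 h, against 7.23% of all. It was chr15:102844698-102844997, and a region was listed at the same place at 0 h, chr15:102844716-102845015.

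At 72 h the added H3K4me3 lay mostly away from the Hoxc4 end, and 5 of the 11 new regions were at the Hoxc13 end, 4 in the middle and 2 at the Hoxc4 end. Of those 5, the 2 longest began 39.8 and 41.1 kb from the low end, close to where the middle part begins (42.3 kb). Coverage of the Hoxc13 end was 6.95% at 72 h and 0.945% at 0 h. The middle had 8.96% at 72 h and 2.13% at 0 h. The Hoxc4 end had 6.16% at 72 h and 4.75% at 0 h, so the differences of 6.00 and 6.83 percentage points in the other parts stand beside one of 1.42 points here. At 6 h and 12 h the Hoxc13 end had 0% coverage, while the Hoxc4 end had 2.95% and 3.13%.

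The strongest new region, with a fold enrichment of 8.43 over the local background, was chr15:102786137-102786955, and another new one stood next to it at chr15:102784817-102785709 (5.11-fold). At the outer Hoxc13 end, chr15:102751754-102752281 was new with 5.74-fold enrichment, close to the region at chr15:102750572-102750971 that was listed at 0 h (7.35-fold) and not at 72 h. At the Hoxc4 end, the new chr15:102865802-102866282 (5.64-fold) followed chr15:102864733-102865614 (7.78-fold), which lay over a region of 0 h with 12.8-fold enrichment. The 14 regions of 72 h ranked low within their own list, at percentiles 0.263 to 18.6 of its fold enrichment with a median of 3.57. They were thus among the weakest H3K4me3 regions of that library, and the 5 regions of 0 h, at percentiles 3.45 to 27.3, were also in the lower part of theirs.

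Regions present at both times numbered 3, and 2 of 5 regions of 0 h (40.0%, exact interval 5.27 to 85.3) were absent at 72 h, against 4.83% of all. The 3 kept regions lay at chr15:102811908-102812836, chr15:102829145-102830573 and chr15:102864733-102865614. All 3 were open in unstimulated wild-type EpiSCs, as were 97.3% of kept regions over the genome. Of the 11 new regions, 2 were open at 0 h, against 59.6% of new regions over the genome, and 4 were open at 48 h, against 59.3%. In embryos, 6 of the 11 were open in both E6.0 libraries (60.1% over the genome) and 2 in the E7.5 posterior part (50.7%).

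The new H3K4me3 regions of 72 h were then set against Ring1b in unstimulated Wnt3KO cells. In the first 0 h library of Ring1b, 8 of the 11 regions (72.7%, exact interval 39.0 to 94.0) overlapped a Ring1b region, against 11.1% of new H3K4me3 regions over the genome. In the second, 1 of 11 did, against 9.91%. The overlap therefore rests on 1 of the 2 libraries, and that library is from another folder than the H3K4me3 lists of 72 h and 0 h, while the second Ring1b library, with 1 of 11, shares their folder. The 8 regions comprise 4 of the 5 new ones at the Hoxc13 end and all 4 in the middle, and neither of those at the Hoxc4 end. Counted over either library, 8 of 11 new regions overlapped Ring1b (13.2% over the genome), and so did 1 of the 3 kept regions (5.61%). The other Hox clusters are set beside the counts of each library below.

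Ring1b regions were present at 0 h and after 5 h of Wnt3a and were not listed after 72 h of CHIR99021. At 0 h the libraries had 12 and 8 regions and covered 5.30% and 3.20% of the window (mean 4.25% ± 1.49, SD, n = 2). After 5 h of Wnt3a there were 8 regions with 3.40%, and after 72 h there were 0. The difference from the 0 h mean was -0.852 points after Wnt3a and -4.25 points at 72 h, with no test for 1 library. Within a folder it was -1.90 points after Wnt3a (the first library) and -3.20 points at 72 h (the second). After Wnt3a the difference from the mean is thus smaller than the SD between the 0 h libraries and the difference within the folder is larger. The 72 h library listed 604 regions in all, against 1605 and 1783 at 0 h. With the 0 h lists cut to that length, 0 shared regions remained in HoxC to be counted as lost, and the difference was -1.53 points.

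The 0 h libraries of Ring1b placed their regions differently within HoxC. Only 3 regions were shared, which is 3 of 12 in the first and 3 of 8 in the second, while over the genome 70.2% and 65.5% were shared. The shared regions of the first library were chr15:102773515-102773988, chr15:102812161-102812883 and chr15:102840504-102840830, 1 in each part of the window. The last meets the region of the second library, chr15:102840109-102840521, only at its edge. At an overlap of 50%, 2 shared regions in place of 3 were counted as absent at 72 h. Coverage at the Hoxc13 end was 5.80% in the first library and 0.865% in the second, whereas the middle had 6.59% and 5.96%. The 72 h list had 0 regions here, so all 3 shared regions were necessarily absent from it (72.9% of shared regions over the genome were). For the same reason 8 of 8 regions of the second 0 h library, from the same folder, were absent at 72 h (78.3% over the genome). Within the other folder, 7 of 12 regions of the first 0 h library were absent after Wnt3a (18.6%). Of the 3 shared regions 2 were absent after Wnt3a (9.24%). Between the unstimulated libraries themselves, 9 of 12 regions of the first were absent from the second (29.8% over the genome). The absence of 7 of 12 after Wnt3a is thus no larger than that between the 0 h libraries.

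Fold enrichment of Ring1b in HoxC was low, between 2.66 and 4.98 over the 3 libraries with regions, and the median percentile within the own list was 3.96 and 1.51 at 0 h and 2.21 after Wnt3a. H3K27me3 was listed once in 6 libraries, at chr15:102750003-102750302 in the second 0 h library, with 2.57-fold enrichment at percentile 0.257 of its list. The other 5 H3K27me3 libraries had 0 regions in HoxC. As depth is unknown, the absence of listed regions sets no upper limit on either Polycomb mark.

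H3K27ac at 24 h in wild-type cells was listed in few regions, and those shared by both libraries were all at the Hoxc4 end. The 24 h libraries had 6 and 4 regions, covering 2.43% and 1.55% of the window (mean 1.99% ± 0.620, SD, n = 2), and the 0 h library had 0. With lists of equal length the mean difference was 1.06 points in place of 1.99. At the Hoxc4 end the regions covered 6.50% and 4.66% at 24 h, in the middle 0.794% and 0%, and at the Hoxc13 end 0% in both. Both 24 h libraries lie above the 0 h library in coverage, which with 2 and 1 libraries was not tested. The 24 h lists came from another folder than the 0 h list and were longer (29056 and 27422 regions, against 14453), so folder, list length and stimulation cannot be told apart.

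All 4 regions shared by the 24 h libraries were necessarily new, as the 0 h list had 0 regions here. Over the genome 59.1% of shared regions were new as well. The strongest of the first library, at chr15:102865898-102866485, had 5.64-fold enrichment there and 5.08-fold in the second. Beside it lay chr15:102865124-102865479 with 4.07-fold and 3.91-fold enrichment, and chr15:102845495-102846296 had 5.03-fold and 5.10-fold enrichment. The fourth, chr15:102871374-102873767 (5.45-fold), runs past the end of the window, and in the second library 4.86-fold enrichment was listed there. Within their own lists the HoxC regions stood at median percentiles 41.8 and 43.1, nearer the middle of the list than the H3K4me3 regions did. The first library alone also listed chr15:102812163-102812498 in the middle and chr15:102844575-102844953.

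In Wnt3KO cells H3K27ac had 0 regions in HoxC at 0 h, 6 h and 12 h, and 3 at 72 h that covered 0.799% of the window. The 0 h and 72 h lists share a folder, and the 6 h and 12 h lists come from another. As the 0 h list had 0 regions here, all 3 were necessarily new (17.4% of all regions were new). The 3 regions stood at percentiles 2.45 to 18.6 of the fold enrichment in their list. They were spread, with 1 in each part, at chr15:102786236-102786635 (5.59-fold), chr15:102790717-102791031 (5.21-fold) and chr15:102845983-102846282 (4.55-fold). The last overlaps a region of wild-type cells at 24 h, 1 of the 4 shared there (35.0% over the genome), and the first overlaps the strongest new H3K4me3 region of 72 h, the only 1 of the 11 to do so (6.25% over the genome). None of the 3 kept H3K4me3 regions overlapped H3K27ac at 72 h, against 52.1% of kept regions over the genome.

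**Figure D2:**
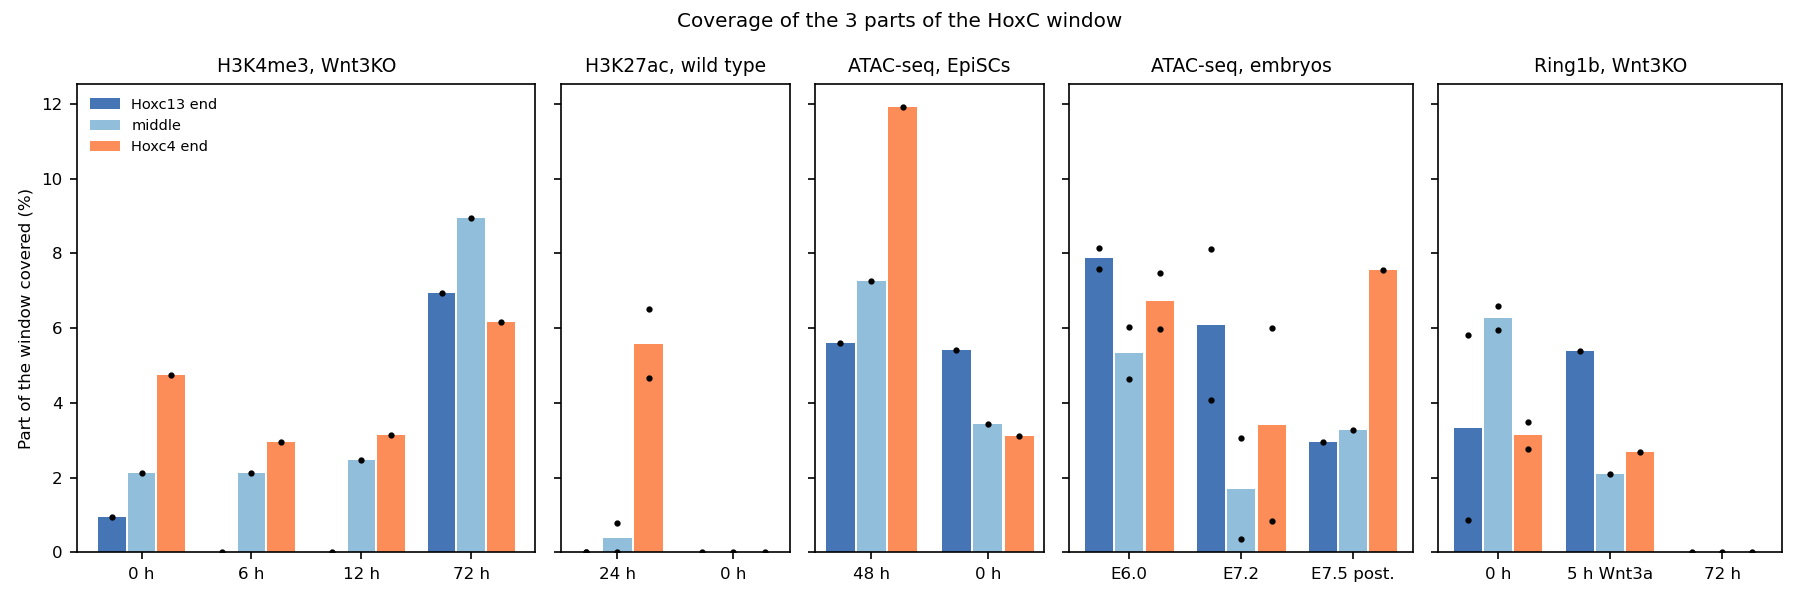
Percent of each of the 3 equal parts of the HoxC window covered by listed regions (y axis), by mark and time or stage (x axis); bars are means, points single libraries, and colours the parts. ATAC-seq in EpiSCs is higher at 48 h than at 0 h mainly at the Hoxc4 end (11.9% against 3.13%), H3K27ac at 24 h lies at that end, and H3K4me3 at 72 h is highest in the middle (8.96%).

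Open chromatin was compared in wild-type EpiSCs between 48 h and 0 h. The 16 regions at 48 h covered 8.26% of the window and the 9 regions at 0 h covered 3.99%, which differ by 4.27 points. The difference was larger toward the Hoxc4 end. The Hoxc13 end was covered by 5.60% at 48 h and 5.41% at 0 h, the middle by 7.25% and 3.44%, and the Hoxc4 end by 11.9% and 3.13%, so the parts differed by 0.191, 3.81 and 8.80 points. Each time had 1 library and the folders differed, so there was no test and folder and stimulation cannot be told apart. In embryos the libraries of those same folders (the second and the first replicates) differed in HoxC by -0.230 points at E6.0 and by 3.97 points at E7.2.

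Of the 16 regions at 48 h, 9 did not overlap a region of 0 h (56.2%, exact interval 29.9 to 80.2), against 27.5% over the genome. The interval covers counting error only and treats neighbouring regions as separate, so it is no test against that share. Of the 9 regions at 0 h, 2 were absent at 48 h (22.2%, exact interval 2.81 to 60.0), against 33.8%. The strongest new region was chr15:102762190-102762514 near the Hoxc13 end (8.61-fold), followed by chr15:102840060-102840748 (6.86-fold) and chr15:102862871-102863719 (6.59-fold) at the Hoxc4 end. The new regions numbered 2 at the Hoxc13 end, 4 in the middle and 3 at the Hoxc4 end. The other new ones had 3.33-fold to 5.66-fold enrichment, and some stood beside kept regions, since 6 new regions remained when regions within 1 kb were joined.

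Part of the added coverage came from regions that were open at both times and longer at 48 h. At the Hoxc4 end, chr15:102844089-102845536 spanned 1448 bp at 48 h (11.6-fold), over a region of 207 bp at 0 h (4.79-fold). Likewise chr15:102865077-102866338 spanned 1262 bp at 48 h (13.9-fold), over one of 421 bp at 0 h (5.73-fold). By contrast, the strongest open region of HoxC, chr15:102750875-102752631 at the Hoxc13 end, had 26.3-fold enrichment at 48 h and 24.1-fold at 0 h, with 1757 bp and 1915 bp. Fold enrichments are the authors' values within each list and set no change between lists. The regions of 0 h that were absent at 48 h lay at chr15:102786327-102786702 (3.95-fold) and chr15:102841676-102841869 (4.99-fold), and both were open in the pair of E6.0 libraries (40.5% of such regions over the genome) and in the pair of E7.2 libraries (20.1%).

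**Figure D3:**
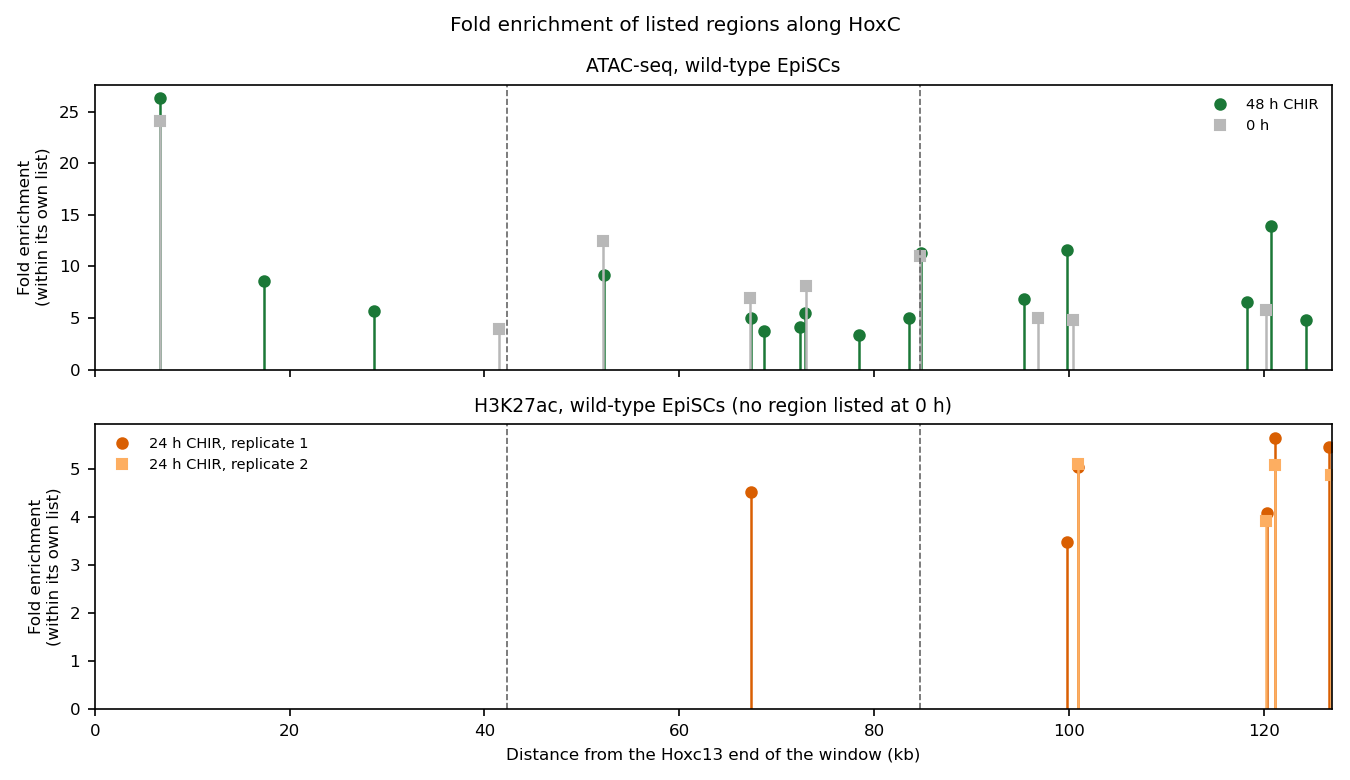
Fold enrichment of each listed region over the local background (y axis, from the authors' lists) against its distance from the Hoxc13 end (x axis, kb), with ATAC-seq of wild-type EpiSCs at 48 h and 0 h above and H3K27ac of both 24 h libraries below. ATAC-seq at 48 h is listed along the whole window, with its highest value (26.3) at the Hoxc13 end, while H3K27ac at 24 h is listed from the middle to the Hoxc4 end with values up to 5.64.

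The additional open regions were compared with H3K27ac. None of the 9 new ATAC-seq regions of 48 h overlapped an H3K27ac region shared by the 24 h libraries (0%, exact interval 0 to 33.6), against 15.6% of new regions over the genome, a share within that interval. The count was also 0 of 9 with either 24 h library alone (18.3% and 16.3% over the genome) and with H3K27ac at 72 h in Wnt3KO cells (0.814%). Of the 7 regions open at both times, 2 overlapped shared H3K27ac, against 55.6% over the genome, and these were the lengthened regions at the Hoxc4 end described above. In the other direction, all 4 shared H3K27ac regions of 24 h were open at 48 h (76.8% over the genome) and 2 were open at 0 h (73.7%). Of those 4, 1 overlapped a new ATAC-seq region (7.22%), chr15:102872733-102873136 (6.15-fold), which lies just beyond the window. H3K27ac was measured at 24 h and ATAC-seq at 48 h, so later H3K27ac at these regions was not examined in wild-type cells.

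The new open regions were also compared with the other marks and with embryos. H3K4me3 of Wnt3KO cells at 72 h was listed at 1 of 9 (2.84% over the genome), chr15:102773573-102773862, and at 5 of the 7 regions open at both times (54.3%). Ring1b of either 0 h library was listed at 2 of 9 (1.16%) and at 3 of 7 (3.52%). In embryos, 1 of the 9 was open in both E6.0 libraries (18.1%), 1 in both E7.2 libraries (16.9%) and 4 in the E7.5 posterior part (43.7%). The E6.0 and E7.2 counts require 2 libraries and the E7.5 count 1, so the stages are not counted alike. The 4 at E7.5 (44.4%) are near the share over the genome and include the 3 strongest new regions. The strongest, chr15:102762190-102762514, was also listed in the second E6.0 and the second E7.2 library. All 7 regions open at both times were open in both E6.0 libraries (81.5%), and 5 of them in the E7.5 posterior part (73.8%).

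In embryos, HoxC was already open at many places at E6.0. The E6.0 libraries had 18 and 19 regions covering 6.76% and 6.53% (mean 6.64% ± 0.163, SD, n = 2), the E7.2 libraries 7 and 17 regions covering 1.76% and 5.73% (3.74% ± 2.81), and the E7.5 posterior part 14 regions covering 4.59%. The E7.2 libraries differ by more than the stages do, and both lie below the E6.0 libraries. The E7.2 minus E6.0 difference was -2.90 points (exact two-sided permutation test, p = 0.333, which is the smallest p that 2 against 2 libraries allow). Within folders it was -5.00 points for the first replicates and -0.802 points for the second. In the E7.5 posterior part the Hoxc4 end was covered by 7.55%, the middle by 3.26% and the Hoxc13 end by 2.95%, while the Hoxc13 end had 8.15% and 7.59% at E6.0, where the Hoxc4 end had 7.48% and 5.98%.

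The same counts were set beside the other Hox clusters, whose mm9 windows were set by hand without an annotation, to see whether HoxC stands apart. At 72 h, H3K4me3 covered 7.36% of HoxC, against 19.2% of HoxA, 15.2% of HoxB and 14.4% of HoxD, and HoxC was the lowest at 0 h as well (2.61%, against 5.22%, 3.78% and 4.96%). The share of regions new at 72 h was similar in all 4, with 11 of 14 in HoxC, 16 of 21 in HoxA, 21 of 28 in HoxB and 16 of 21 in HoxD. At 12 h, 0 of 4 H3K4me3 regions of HoxC were new relative to 0 h, against 9 of 13 in HoxA, 7 of 14 in HoxB and 0 of 7 in HoxD. With 4 regions the count of HoxC has an exact interval of 0 to 60.2% and is near the share over the genome (3.53%), so these lists do not settle whether HoxC responds later. The 12 h and 0 h lists come from separate folders in all 4 clusters. H3K27ac at 24 h covered 2.43% and 1.55% of HoxC, against 11.2% and 9.85% of HoxA, 8.44% and 7.86% of HoxB and 5.25% and 4.07% of HoxD. In both libraries HoxC was the lowest of the 4. New H3K4me3 regions of 72 h overlapped the first 0 h Ring1b library in 8 of 11 cases in HoxC. The counts were 8 of 16 in HoxA, 5 of 21 in HoxB and 8 of 16 in HoxD. With the second they were 1 of 11, 2 of 16, 2 of 21 and 1 of 16. Ring1b at 72 h also had 0 regions in HoxB and in HoxD, and 3 in HoxA.

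By coverage, open chromatin of HoxC was the lowest of the 4 at 0 h, just below HoxB, and not at 48 h. ATAC-seq at 48 h covered 8.26% of HoxC, against 10.5% of HoxA, 7.47% of HoxB and 10.7% of HoxD. At 0 h it covered 3.99% of HoxC, against 8.51% of HoxA, 4.10% of HoxB and 7.51% of HoxD. By regions per 100 kb HoxC was the lowest at both times. It had 7.09 at 0 h, against 11.3 in HoxA, 9.63 in HoxB and 11.3 in HoxD. At 48 h it had 12.6, against 16.5, 14.4 and 20.8, so its rank at 48 h depends on the measure. The ATAC-seq regions new at 48 h were 9 of 16 in HoxC, 8 of 19 in HoxA, 15 of 27 in HoxB and 12 of 22 in HoxD. New ATAC-seq regions overlapped shared H3K27ac of 24 h in 0 of 9 cases in HoxC, against 4 of 8 in HoxA, 5 of 15 in HoxB and 4 of 12 in HoxD. The share over the genome, 15.6%, lies within the exact interval of HoxC (0 to 33.6%). With the HoxC window longer by 20 kb at each end the count was 1 of 12, and the other windows were not lengthened. Counts this small do not settle whether HoxC differs from the other clusters. Counts of new and overlapping regions are not scaled to the length of the windows, which is 127 kb for HoxC, 115 kb for HoxA, 187 kb for HoxB and 106 kb for HoxD. With 1 window per cluster and 1 ATAC-seq library per time these differences between clusters were not tested.

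**Figure D4:**
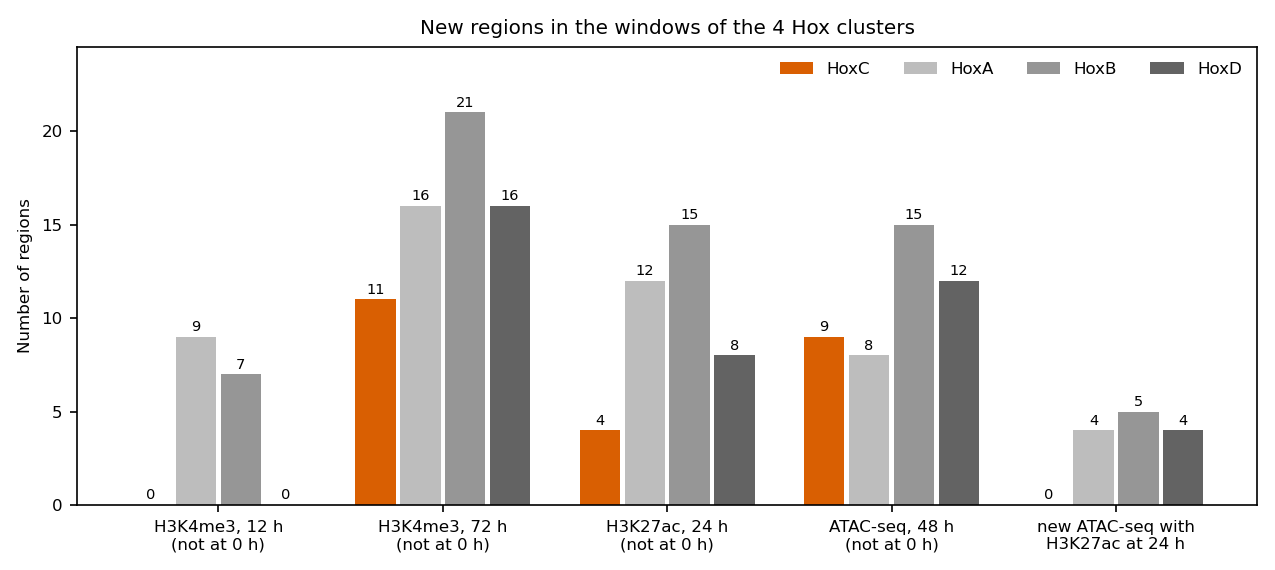
Number of regions new after stimulation in the windows of HoxC, HoxA, HoxB and HoxD (y axis) for H3K4me3 at 12 h and 72 h in Wnt3KO cells, H3K27ac shared by both libraries at 24 h and ATAC-seq at 48 h in wild-type cells, and, at the right, new ATAC-seq regions that overlap shared H3K27ac. HoxC has 0, 11, 4, 9 and 0, and in the last group HoxA has 4, HoxB 5 and HoxD 4. The last count of HoxC is 1, of 12 new regions, with a window longer by 20 kb at each end.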

How the data were processed

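Per the submitters' processing notes, the tools were MACS2 2.1.0 and SAMtools 0.1.19 for both assays, Bowtie 1.1.0 for ChIP-seq, and cutadapt 1.8.1 and Bowtie2 2.1.0 for ATAC-seq, with mm9 as the build and no role or order given. For 4 wild-type ChIP-seq libraries (H3K27ac at 24 h and the H3K4me3 pair) no tools are named there, and no source used here names the library behind the background of peak calling. In the deposited lists, fold enrichment is the ratio of signal over local background from the authors' peak caller, and −log10 p and −log10 q values are deposited beside it. Settings in the deposited peak names were read as an extension of 300 bp and a local background of 100 kb. Fold enrichment was used only to describe regions within a list.

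Regions of a list that overlapped were to be merged, which removed 0 regions. An overlap between lists meant at least 1 shared bp. New and lost regions, coverage of the window and of 3 equal parts, exact Poisson intervals and exact Clopper-Pearson intervals (95%, counting error only) were computed with Python 3.11.15, pandas 2.3.3 and scipy 1.17.1. The overlap routine recovered 5 of 5 known answers on a simulated list of 1000 regions. Over the genome, the same rule gave the background share beside each count. Shared regions are those of the first replicate that overlap the second.

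Groups follow the labels. For embryos the peak names carry other stage names, which were not used. The genes, window, gene lists and comparisons were chosen with earlier results of these data known. All regions of the window enter the counts. The regions named are the shared or new ones of each comparison, with examples picked after their values were seen. Alternatives were an overlap of 50% of the shorter region, a −log10 q of at least 5, joining of regions within 1 kb, lists of equal length, a window longer by 20 kb at each end and leaving out each replicate.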

Additional observations from a re-analysis of the deposited data

Results flagged for a closer look

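The pair of wild-type H3K4me3 libraries whose titles and stimulation labels contradict each other also listed regions in HoxC, where both inputs had 0. The library numbered 1 in accession order had 7 regions, which covered 5.35% of the window, and the library numbered 2 had 13 regions, which covered 8.81%. These libraries are not replicates of a group and were not compared with each other or with any other library.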

How the results depend on the processing

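Of 102 values for 17 results under alternative settings, 1 changed sign and 20 moved by more than the limit set. The limit was 1.5 times for a count and the SD between replicates for coverage. For coverage by ATAC-seq in EpiSCs it was the SD of the E6.0 libraries, and for H3K4me3 it came from a binomial interval. The other 81 did neither, which for the embryo difference means only that its sign was kept. With lists of equal length, shared H3K27ac regions new at 24 h numbered 2 in place of 4, and ATAC-seq regions lost at 48 h 1 in place of 2 (also 1 at a −log10 q of at least 5). Shared Ring1b regions lost at 72 h then numbered 0 in place of 3, since 0 shared regions remained in HoxC in the cut 0 h lists. The H3K27ac coverage difference at equal length was 1.06 points in place of 1.99. At an overlap of 50%, shared Ring1b regions lost after Wnt3a numbered 1 in place of 2. Those lost at 72 h numbered 2 in place of 3, which is within the limit. With the longer window 1 of 12 new ATAC-seq regions carried H3K27ac, in place of 0 of 9. Leaving out 1 of the 0 h libraries gave 8 to 12 lost Ring1b regions at 72 h, 6 to 7 after Wnt3a, 0 to 1 lost H3K27me3 regions, and 1 to 8 new H3K4me3 regions on Ring1b, with 1 when the first 0 h library was left out. The Ring1b difference after Wnt3a reversed to 0.20 points without that library, against -0.85 with both and -1.90 without the second, and was -0.193 with the longer window. The cause was not tested. The E7.2 minus E6.0 difference was -4.89 to -0.917 points with a library left out and -0.565 at equal list length. With the replicate number as a block it stayed at -2.90 (exact sign-flip test, p = 0.5, the smallest that 2 pairs allow). The alternatives for coverage differences other than that of the embryos, and for H3K4me3 on Ring1b, were chosen after seeing the data. Depth is unknown, so regions absent from a list may have been missed.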
